A study of Mus musculus with 16 samples.

Results

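Some genes mark type 1 conventional dendritic cells (cDC1s), or serve them in taking up and cross-presenting antigen. Such genes were followed across splenic dendritic cells (DCs) of wild-type (WT) and conditional Trim33 knockout (cKO) mice. They comprised 10 of the 17721 genes in the table of conventional DCs. The 7 core markers were Xcr1, Clec9a, Cd8a, Cadm1, Ly75, Wdfy4 and Btla. The other 3, Itgae, Gp2 and Dkk3, were selected on their difference between genotypes in cDC1s, and their values in that comparison are a description with no test. The same holds for the genotype values of all 10 genes in cDC1s.

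RNA-seq covered 16 libraries of DCs sorted from the spleens of C57BL/6 mice aged 6 to 8 weeks. WT mice were Trim33 fl/fl without Cre, and cKO mice were Trim33 fl/fl Itgax-Cre, so both genotypes carried the floxed allele. Itgax encodes CD11c, and Cre driven by it acts in CD11c-expressing cells, which includes all the sorted subsets. The cDC1s (CD11c+ SiglecH- MHC II+ CD24+ CD172a-) had 2 libraries of each genotype, and the cDC2s (CD24- CD172a+ in the same gate) had 3 of each. Plasmacytoid DCs (pDCs, CD11c+ SiglecH+) also had 3 of each. Each library pooled cells of several mice, with more mice in the cKO pools, and the study describes the libraries as biological repeats, so p-values measure the spread between these pools.

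DCs show fragments of antigen to T cells. The cDC1 lineage, which depends on the factors IRF8 and BATF3, is known for cross-presentation, in which material taken up from outside is placed on MHC class I for CD8+ T cells. In mouse spleen its surface is marked by the chemokine receptor XCR1, by CD8α and by the dead-cell receptor CLEC9A, and splenic cDC1s are in part CD103+.

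All levels are in TPM, a share of all transcripts in a library that accounts for transcript length, so that levels can be set beside each other between genes. Differences are on the log2(TPM + 1) scale and compare cKO with WT unless stated, with the standard error (SE) of the linear model limma. A gene was called where its adjusted p was at most 0.01 and its absolute log2 difference at least 0.5. The depth recovered from the deposited values was 18060000 to 20060000 reads per library, at which 3 reads corresponded to between 0.0286 and 0.184 TPM over these genes. This range covers counting error only.

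Trim33 was lower in every cKO library than in every WT library of its subset. It lay at 15.5 and 18.2 TPM in WT cDC1s and at 7.88 and 7.71 TPM in cKO cDC1s, with means of 18.7 and 7.71 TPM in cDC2s and 22.3 and 13.6 TPM in pDCs. The difference was called in cDC1s (-1.02, adjusted p = 0.00035) and cDC2s (-1.17, adjusted p = 0.00013) but not in pDCs (-0.68, adjusted p = 0.030), where it was called once libraries were blocked by replicate number (adjusted p = 0.0036). The sorted cells carried the RNA of their gates. Cd24a was at 486 TPM or more in all cDC1 libraries and at 55.1 or less in cDC2s, Sirpa was at 444 TPM or more in cDC2s and at 7.43 or less in cDC1s, and Siglech was at 4367 TPM or more in pDCs. The median of all 11411 genes tested in cDC1s was itself 0.17 higher in cKO and moved to 0.016 under median-of-ratios scaling, so each cDC1 difference below can be read against it.

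Promoter sequences are shown for the member with the largest genotype difference in cDC1s (Gp2), for the dead-cell receptor Clec9a, and for Cd8a, whose window was alone among the members' in holding any searched motif. RefSeq (GRCm38.p6) gave a window for 7 of the 10 genes, cut here to the 250 bases before the start. Windows for Cadm1, Itgae and Dkk3 were not used here. Each is written 5′ to 3′ on the gene's strand, with motif matches in capitals. The Gp2 window is chr7:119459273-119459522 on the minus strand, the Clec9a window chr6:129408612-129408861 on the plus strand and the Cd8a window chr6:71373177-71373426 on the plus strand.
Gp2: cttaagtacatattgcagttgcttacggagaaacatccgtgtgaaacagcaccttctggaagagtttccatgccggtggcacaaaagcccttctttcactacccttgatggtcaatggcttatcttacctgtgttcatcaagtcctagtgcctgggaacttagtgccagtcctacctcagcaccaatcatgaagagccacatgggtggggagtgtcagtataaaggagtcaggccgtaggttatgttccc
Clec9a: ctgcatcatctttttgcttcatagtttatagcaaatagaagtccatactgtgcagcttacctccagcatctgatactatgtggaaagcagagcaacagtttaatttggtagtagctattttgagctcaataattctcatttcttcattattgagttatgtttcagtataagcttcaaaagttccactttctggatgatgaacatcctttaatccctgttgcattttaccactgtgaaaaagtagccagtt
Cd8a: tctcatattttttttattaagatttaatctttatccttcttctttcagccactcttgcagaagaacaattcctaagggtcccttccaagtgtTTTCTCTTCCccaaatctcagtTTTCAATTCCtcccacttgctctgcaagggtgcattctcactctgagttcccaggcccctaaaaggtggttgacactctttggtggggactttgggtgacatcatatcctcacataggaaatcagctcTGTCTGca
The motifs were searched on both strands and may overlap each other. The AP-1 motif TGANTCA was found in 0 of the 7 windows against 6.75% of 32851 RefSeq windows of this length, and the ISRE-like motif (GAAA, any 2 bases, GAAA) in 0 against 2.98%. The ETS-IRF motif (GGAA, any 2 bases, GAAA) was found in 1 (2.3% of all) and the SMAD-like motif CAGACA in 1 (17.1% of all), both in Cd8a. The Cd8a window held 2 ETS-IRF matches, TTTCTCTTCC beginning 158 bases and TTTCAATTCC beginning 136 bases before the start, and 1 SMAD-like match, TGTCTG, beginning 8 bases before it. A match is a run of letters and was not tested as a binding site.

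In cDC1s, 9 of the 10 genes were lower in cKO and Wdfy4 was higher, with no overlap between the genotypes' libraries for any of the 10. Over all genes tested, 76.2% did not overlap in this comparison of 2 against 2 libraries. Differences of at least 1 were reached by 6 genes, all lower in cKO (Gp2, Dkk3, Itgae, Cadm1, Clec9a and Cd8a), where 4.51% of all genes did so. Cd8a at -1.20 was the member nearest inside that limit and Ly75 at -0.99 the nearest outside. For Itgae, Gp2 and Dkk3 these counts restate what chose the genes, and nothing is read from them for any member.

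The sizes of these differences varied widely among the genes. The summed level of the 7 core genes was 2671 and 2724 TPM in the WT cDC1 libraries taken in order of size, and 1980 and 2043 TPM in cKO. The summed level of Itgae, Gp2 and Dkk3 ran from 153 to 168 TPM in WT and was 12.5 TPM in both cKO libraries.

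Gp2 encodes a GPI-anchored glycoprotein best known as a receptor for bacteria on intestinal M cells (gene ID 67133, chr7:119442537-119459272). Its level was 40.6 and 43.6 TPM in WT cDC1s and 1.15 and 0.77 TPM in cKO cDC1s. The cKO libraries held an estimated 22.1 and 15.6 reads of it, above the limit of 3. The cKO mean was 2.28% of the WT mean, and the log2 difference was -4.47 (SE 0.17).

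Dkk3 encodes a secreted glycoprotein of the Dickkopf family (gene ID 50781, chr7:112116019-112159482). WT cDC1s had 49.5 and 47.6 TPM and cKO cDC1s 1.72 and 1.66 TPM, a cKO mean of 3.48% of WT and a difference of -4.20 (SE 0.30). Both genotypes were tight around their means, and the reads in cKO were few but above the limit (56.0 and 56.4).

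Itgae encodes the αE integrin chain CD103, which pairs with β7 to bind E-cadherin (gene ID 16407, chr11:73090505-73147449). It was at 77.7 and 62.0 TPM in WT cDC1s and at 9.63 and 10.1 TPM in cKO cDC1s. The cKO mean was 14.1% of WT, and the difference was -2.70 (SE 0.27).

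Among the core receptors, Cadm1 showed the largest difference. It encodes a homophilic and heterophilic adhesion molecule of the immunoglobulin superfamily (gene ID 54725, chr9:47530170-47862280). WT cDC1s had 192 and 196 TPM and cKO cDC1s 54.4 and 60.5 TPM, with a difference of -1.74 (SE 0.32) and a cKO mean of 29.6% of WT.

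Clec9a encodes the C-type lectin DNGR-1, which binds exposed actin filaments of dead cells (gene ID 232414, chr6:129408862-129424764). Its level was 547 and 536 TPM in WT cDC1s and 216 and 213 TPM in cKO cDC1s, a difference of -1.33 (SE 0.32). Annotated exons of Clec1b overlap Clec9a on the same strand, so the assignment of some reads between them is uncertain.

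Cd8a encodes the CD8α chain, which DCs carry as a homodimer (gene ID 12525, chr6:71373427-71379171). WT cDC1s had 489 and 460 TPM and cKO cDC1s 187 and 228 TPM. The difference was -1.20 (SE 0.35), with the cKO mean at 43.7% of WT.

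Ly75 encodes an endocytic receptor of the mannose receptor family that delivers antigen to processing compartments (gene ID 17076, chr2:60292103-60383273). Its level was 58.6 and 49.8 TPM in WT cDC1s and 27.0 and 26.6 TPM in cKO cDC1s, a difference of -0.99 (SE 0.20). An antisense gene, Gm13571, overlaps it, and whether counting used strand is not given in the sources used here.

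Xcr1, the receptor for the chemokine XCL1, was at 307 and 303 TPM in WT cDC1s and at 202 and 224 TPM in cKO cDC1s (gene ID 23832, chr9:123852315-123862029). The difference was -0.52 (SE 0.46), where the SE is shared with the more scattered cDC2 libraries. The cKO mean was 69.9% of WT, so Xcr1 was reduced less than Clec9a, Cd8a and Cadm1 in the same libraries.

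Btla encodes an inhibitory receptor for HVEM (gene ID 208154, chr16:45223705-45252895). WT cDC1s had 438 and 484 TPM and cKO cDC1s 377 and 374 TPM, a difference of -0.29 (SE 0.12).

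Wdfy4, a BEACH-domain protein needed for cross-presentation of cell-associated antigen by cDC1s, was the member that was higher in cKO (gene ID 545030, chr14:32959547-33193855). Its level was 640 and 695 TPM in WT cDC1s and 980 and 854 TPM in cKO cDC1s. The difference was 0.46 (SE 0.18), or 0.28 above the median of all genes, and it stayed positive under both other scalings.

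**Figure D1:**
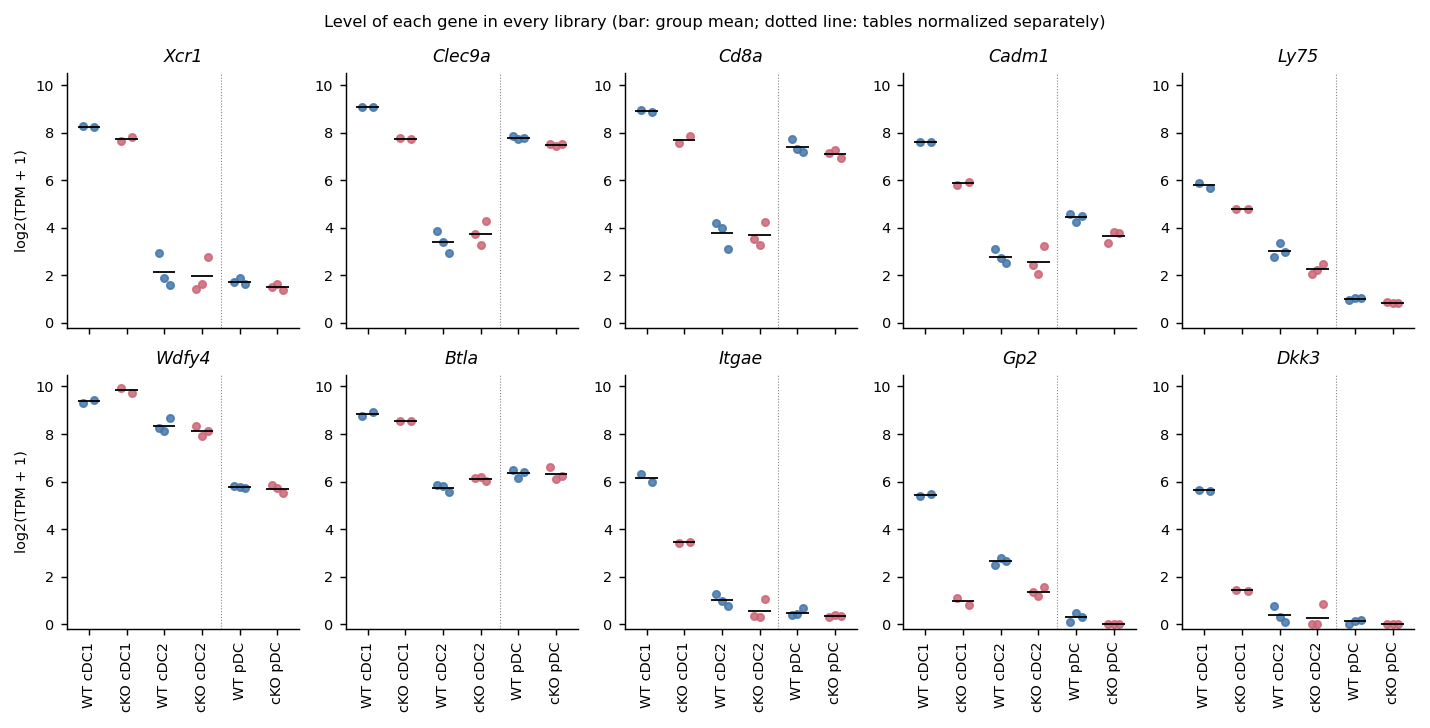
Level of each gene in every library, as log2(TPM + 1) on a linear axis, by subset and genotype (blue, WT; red, cKO), with bars at group means. Itgae, Gp2 and Dkk3 show the widest gap between WT and cKO cDC1s, while Wdfy4 is higher in cKO cDC1s; the pDC table, right of the dotted line, was normalized separately.

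The order of the levels changed with genotype. In WT cDC1s it ran, by mean TPM, from Wdfy4 (667) through Clec9a (541), Cd8a (474), Btla (461), Xcr1 (305), Cadm1 (194), Itgae (69.9), Ly75 (54.2) and Dkk3 (48.5) to Gp2 (42.1). Cd8a and Btla overlapped, while the other neighbours in that order did not. In cKO cDC1s the order was Wdfy4 (917), Btla (375), Clec9a (214), Xcr1 (213), Cd8a (207), Cadm1 (57.5), Ly75 (26.8), Itgae (9.86), Dkk3 (1.69) and Gp2 (0.96). Clec9a, Xcr1 and Cd8a overlapped there, and the other neighbours did not.

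Other genes moved with genotype in the same cDC1 libraries. Of all 11411 genes tested there, 1806 were called higher in cKO and 749 lower, 22.4% in all. The summed level of 10 genes of mature, migrating DCs (among them Ccr7, Fscn1 and Ccl22) was 1771 to 3003 TPM in WT and 432 to 522 TPM in cKO, and all 10 were called lower. Ccr7, the receptor that guides DCs to lymph nodes, was at 694 and 417 TPM in WT and at 18.5 and 33.7 TPM in cKO. Macrophage genes summed to 72.8 to 76.6 TPM in WT and 24.8 to 30.4 TPM in cKO, with Vcam1 called among 7. The pDC list summed to 148 to 161 TPM in WT and 253 to 256 TPM in cKO, with 3 of the 6 tested called higher and 1 lower. The cDC2 list summed to 53.1 to 69.3 TPM in WT and 64.9 to 70.9 TPM in cKO, with 2 of 9 genes called higher and 2 lower. B-cell genes summed to 33.7 to 45.3 TPM in WT and 54.5 to 62.0 TPM in cKO (1 of the 4 tested called higher and 1 lower). T-cell genes summed to 14.7 to 17.6 TPM in WT and 11.96 to 13.9 TPM in cKO with none called of the 3 that could be tested, and Cd3e was at or under 0.22 TPM. NK-cell genes summed to at most 0.68 TPM. The part of these genes in the members' differences was not tested, and in sorted pools fewer cells of a type and less RNA per cell cannot be told apart.

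In cDC2s, 2 genes passed the test, Gp2 and Ly75, both lower in cKO, where 3.56% of all 11411 genes were called lower. Libraries did not overlap for 3 of the 10 (Gp2, Ly75 and Btla), against 35.5% of all genes. The rule for Itgae, Gp2 and Dkk3 names the cDC1 comparison, but earlier results of the cDC2 libraries were known as well. All 10 were fitted, but Itgae and Dkk3, and no others, passed the filter on low values because of their level in cDC1s, so the test in cDC2s is read for the other 8.

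Other genes moved with genotype in the cDC2 libraries too. Of all 11411 genes tested there, 410 were called higher in cKO and 406 lower, 7.15% in all. The mature DC genes summed to 2090 to 2490 TPM in WT and 1078 to 1384 TPM in cKO, with 2 of 10 called lower. The pDC list summed to 129 to 164 TPM in WT and 195 to 228 TPM in cKO, with 1 of the 6 tested called higher. Of the 9 genes of the cDC2 list 3 were called higher and 3 lower, and its sums overlapped between genotypes (1654 to 1777 and 1428 to 1660 TPM). The sums of the macrophage, B-cell, T-cell and NK-cell lists also overlapped, with 1 B-cell gene called lower. The part of these genes in the members' cDC2 differences was not tested.

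Gp2 was at 4.61, 5.81 and 5.40 TPM in WT cDC2s and at 1.54, 1.27 and 1.99 TPM in cKO cDC2s. All WT libraries lay above all cKO libraries. The difference was -1.28 (SE 0.14, adjusted p = 0.00042), and it was called under all 19 alternatives tried.

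Ly75 was at 5.76, 9.10 and 6.93 TPM in WT cDC2s and at 3.09, 3.70 and 4.53 TPM in cKO cDC2s, again without overlap. Its difference was -0.78 (SE 0.16, adjusted p = 0.0088). The call was lost in 15 of 19 alternatives (adjusted p 0.0067 to 0.032), among them the omission of any single library other than WT cDC2 replicate 1.

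Btla lay higher in cKO cDC2s. Its level was 56.0, 55.8 and 45.7 TPM in WT and 70.8, 71.2 and 63.8 TPM in cKO, so every cKO library lay above every WT library. The difference of 0.38 (SE 0.10, adjusted p = 0.022) missed the threshold.

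Xcr1, Clec9a, Cd8a, Cadm1 and Wdfy4 overlapped between genotypes in cDC2s and were not called, with adjusted p from 0.33 to 0.86. Wdfy4 was abundant there too, at 306, 277 and 402 TPM in WT and at 323, 241 and 277 TPM in cKO (-0.22, SE 0.15). Clec9a was at 13.7, 9.53 and 6.70 TPM in WT and 12.2, 8.53 and 18.5 TPM in cKO, a difference of 0.35 (SE 0.26). Itgae was at 1.42, 0.99 and 0.69 TPM in WT and 0.26, 0.23 and 1.11 TPM in cKO, and is given without a test. Dkk3 reached at most 0.79 TPM, with 0 reads in 2 of the cKO cDC2 libraries.

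Some cDC1 genes differed between cDC2 libraries within both genotypes. Xcr1 was at 6.60 TPM in WT replicate 1 and 5.82 TPM in cKO replicate 3, against 1.71 to 2.73 TPM in the other 4 libraries. Cadm1 (7.69 and 8.36 TPM), Clec9a (13.7 and 18.5 TPM) and Cd8a (17.1 and 17.8 TPM) were highest in the same libraries. Some of the 18 other cDC1 markers were too, among them the endosomal GTPase gene Rab7b (3.8 and 4.67 TPM), chosen after its values were seen. Cd36 had 7.94 and 6.99 TPM against 2.86 to 3.91 TPM, and Pdia5 had 6.31 and 5.86 TPM against 2.18 to 2.54 TPM. Cd36 and Pdia5 also ran closest to Xcr1 over all cDC libraries, these included, so their match with Xcr1 here is no separate observation. Tlr3 had 7.35 and 7.77 TPM against 5.38 to 6.38 TPM. Others of the 18 did not separate these libraries, such as Naaa (61.1 and 99.7 TPM against 38.3 to 72.3 TPM) and Notch4 (2.98 and 5.13 TPM against 2.95 to 4.32 TPM). Among the members, Ly75 (5.76 and 4.53 TPM against 3.09 to 9.10 TPM) did not either. Nor did Gp2 (4.61 and 1.99 TPM against 1.27 to 5.81 TPM), Wdfy4 or Btla. The summed level of those 18 did not separate these libraries (838 and 827 TPM, with 639 to 852 TPM in the rest), and its largest parts were Flt3 and Dpp4, which averaged 325 and 262 TPM in WT cDC2s. Without both libraries, an alternative chosen after seeing the data, Gp2 remained called (-1.46, adjusted p = 0.0028), and Ly75 was not (-1.03, adjusted p = 0.012). Xcr1 was then at -0.19 (SE 0.15, adjusted p = 0.47) and Clec9a at 0.32 (SE 0.19, adjusted p = 0.34).

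**Figure D2:**
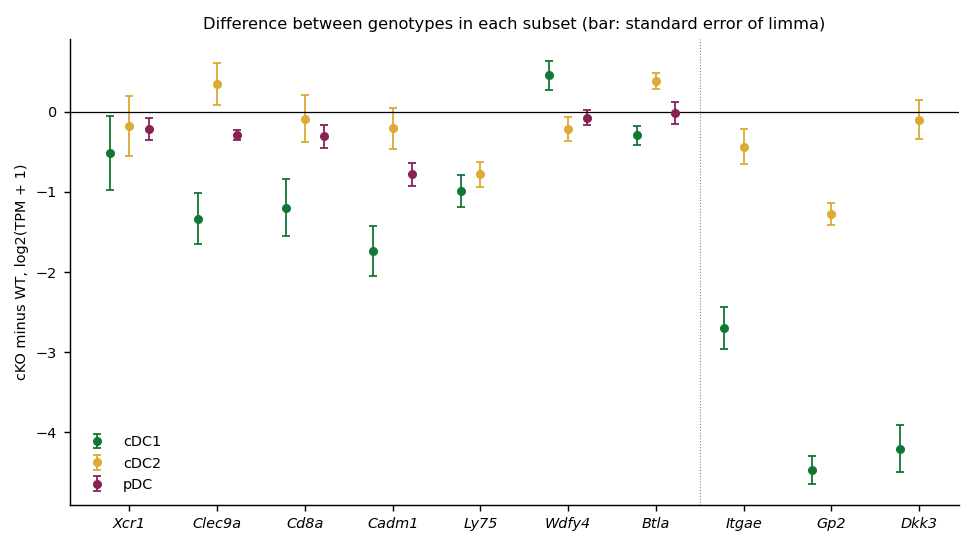
Difference between cKO and WT in log2(TPM + 1) for each gene in cDC1s (green), cDC2s (yellow) and pDCs (purple), with bars for the standard error of limma. Gp2 lies below 0 in both conventional subsets (-4.47 and -1.28); Ly75, Itgae, Gp2 and Dkk3 have no pDC point because their mean level there was under 1 TPM.

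In pDCs none of the genes passed the test by limma, where 1.05% of all 11299 genes did. Only 6 of the 10 could be tested, since Ly75, Itgae, Gp2 and Dkk3 averaged under 1 TPM, and 2 of the 6 had an unadjusted p under 0.05. Here and below, the share of all genes at that unadjusted p was not computed, so nothing is read from such counts. Libraries did not overlap for 3 of the 6, against 27.5% of all genes. No comparison was made between pDCs and conventional DCs, whose tables were normalized separately. Macrophage genes summed to 58.0 to 105 TPM in WT and 98.9 to 182 TPM in cKO (none called). B-cell genes summed to 60.6 to 89.8 in WT and 75.9 to 154 in cKO (1 of 5 tested called higher). The pDC list summed to 16753 to 16893 in WT and 17518 to 18755 in cKO (1 of 7 called higher). Within it, Cox6a2 averaged 1189 TPM in WT and 3283 TPM in cKO, and Ly6d 3680 and 3855 TPM. The means of Siglech (4981 and 4564 TPM), Bst2, Ccr9, Tcf4 and Klk1 were lower in cKO. The cDC2 list summed to 2232 to 2325 in WT and 2034 to 2179 in cKO (1 of 7 tested called higher). Its largest parts, by WT and cKO means, were Cd4 (1031 and 773 TPM), Clec10a (453 and 613 TPM) and Cd209a (437 and 339 TPM). Esam and Clec4a4 averaged under 1 TPM, and Itgam averaged 1.81 TPM in WT and 20.3 TPM in cKO. Mature DC genes summed to 116 to 132 in WT and 94.8 to 105 in cKO (none called).

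Cadm1 had the largest difference in pDCs. It was at 22.8, 18.1 and 21.3 TPM in WT and at 9.39, 13.3 and 12.6 TPM in cKO, without overlap (-0.78, SE 0.14, adjusted p = 0.026). Clec9a was abundant in pDCs, at 231, 211 and 218 TPM in WT and 185, 171 and 184 TPM in cKO. Its libraries did not overlap either, and its difference was -0.29 (SE 0.06, adjusted p = 0.040). The part of the gene lists above in the members' pDC differences was not tested.

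Cd8a was also abundant in pDCs, at 213, 159 and 144 TPM in WT and 139, 152 and 121 TPM in cKO (-0.31, SE 0.15, adjusted p = 0.28). Cd8b1, which encodes the CD8β chain of T cells, was at 793, 496 and 512 TPM in WT pDCs and 313, 365 and 298 TPM in cKO pDCs (-0.85, adjusted p = 0.038). It was singled out after its values were seen. The CD3 chain genes Cd3d, Cd3e and Cd3g were at or under 0.94 TPM in every pDC library. Other T-cell genes were not as low. Cd28 was at 14.7 to 20.4 TPM in WT and 15.4 to 22.6 TPM in cKO. Cd5 was at 4.58 to 8.16 TPM in WT and 9.56 to 11.1 TPM in cKO, and Lck at 1.21 to 1.44 and 1.72 to 5.93 TPM. Of the 8 genes of the T-cell list 4 were tested by limma, and none was called.

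The other pDC levels were lower or even between genotypes. Xcr1 was at 2.24, 2.64 and 2.13 TPM in WT and 1.88, 2.11 and 1.63 TPM in cKO (-0.22, SE 0.14). Btla averaged 80.5 ± 8.68 TPM in WT and 80.2 ± 15.1 TPM in cKO (SD, n = 3), and Wdfy4 53.8 ± 1.32 and 51.2 ± 6.25 TPM (SD, n = 3). Gp2 was listed at 0 in all cKO pDC libraries and at 0.37 TPM or less in WT, where at most an estimated 5.97 reads stood behind it, so no difference is given.

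The 7 core genes also separated cDC1s from cDC2s within each genotype. This asks whether cells sorted as cDC1s kept their distance from cDC2s in cKO. All 7 were called higher in cDC1s in WT, against 10.9% of all genes, and all 7 in cKO, against 14.5% (1656 genes, and 949 or 1058 without cKO cDC1 replicate 1 or 2). They are known markers of this subset, so the direction was given by the choice of genes. Cells sorted as cDC1s carried the core markers in both genotypes.

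Xcr1 had the widest distance, 6.13 (SE 0.42, adjusted p = 1.1e-06) in WT and 5.79 (SE 0.42, adjusted p = 2.3e-06) in cKO. In WT, Clec9a (5.68, SE 0.29) and Cd8a (5.13, SE 0.32) followed, and in cKO they lay side by side at 4.0 (SE 0.29) and 4.02 (SE 0.32). Cadm1 had 4.83 and 3.29 (SE 0.29 in both). In TPM, Clec9a was 54.3 times as high in cDC1s as in cDC2s in WT and 16.4 times in cKO, whereas for Xcr1 these ratios were 81.0 and 66.1.

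The distance was narrower for Btla (3.12 in WT and 2.44 in cKO, SE 0.11) and Ly75 (2.76 and 2.55, SE 0.18). Wdfy4, expressed in both subsets, had the narrowest distance and was the member with the wider one in cKO, at 1.04 (adjusted p = 0.00055) in WT and 1.71 (adjusted p = 1.9e-05) in cKO, with SE 0.17. The change of distance between genotypes was not tested, because it contains the cDC1 genotype differences, which are given as a description for all members. In the WT comparison the median of all genes was -0.17, against 0.013 under median-of-ratios scaling.

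Itgae, Gp2 and Dkk3 are given for the same distance without a test. Itgae was at 5.13 in WT and 2.87 in cKO, and Dkk3 at 5.25 and 1.15. Gp2 changed order, from 2.79 higher in WT cDC1s to -0.41 in cKO, where both cDC1 libraries (1.15 and 0.77 TPM) lay below all 3 cDC2 libraries (1.27 to 1.99 TPM).

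**Figure D3:**
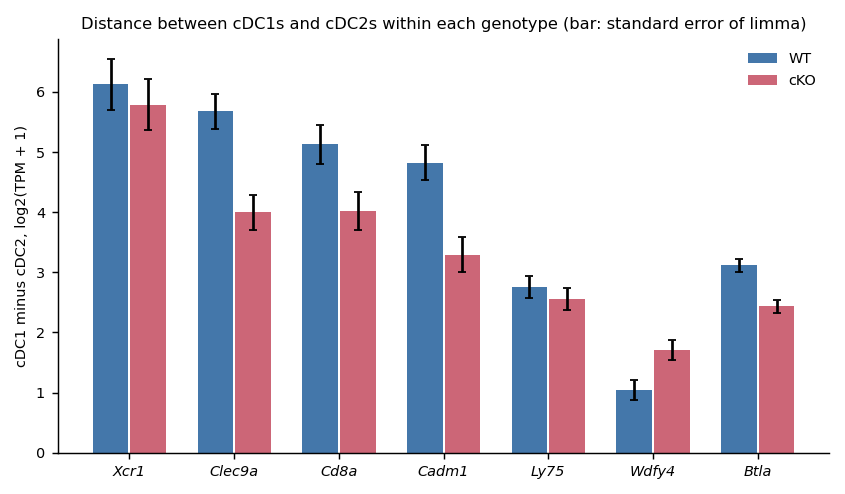
Distance between cDC1s and cDC2s in log2(TPM + 1) for the 7 core genes within WT (blue) and cKO (red), with bars from 0 and the standard error of limma. All 7 lie above 0 in both genotypes, from 1.04 (Wdfy4) to 6.13 (Xcr1) in WT and from 1.71 (Wdfy4) to 5.79 (Xcr1) in cKO.

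Other genes of the cDC1 programme were counted from 3 lists. In cDC1s 22.4% of all genes were called between genotypes, in cDC2s 7.15% and in pDCs 1.05%. These shares moved when single libraries were left out. The 2555 calls in cDC1s became 800 and 1111 without cKO cDC1 replicate 1 and 2, and 1118 without WT cDC1 replicate 1. The 816 calls in cDC2s became 316 without cKO cDC2 replicate 3, and 448 to 531 without cKO cDC2 replicate 1, WT cDC2 replicate 1 or 2, or either cKO cDC1 library. The 119 calls in pDCs became 12 without WT pDC replicate 3, and 40 to 57 without WT pDC replicate 1 or 2 or cKO pDC replicate 1 or 2. Of the calls in cDC1s 70.7% were higher in cKO, and 50.0% under median-of-ratios scaling. In cDC2s these shares were 50.2% and 60.5%.

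Of 18 other cDC1 markers, 4 were called in cDC1s, 2 higher and 2 lower, and the median difference over the list was -0.29. Notch4, a Notch receptor, fell from 72.9 and 66.8 TPM in WT to 34.8 and 31.9 TPM in cKO (-1.04, adjusted p = 0.0012). Clnk, an adaptor of immunoreceptor signalling, fell from 26.1 and 30.4 TPM to 15.1 and 14.6 TPM (-0.88, adjusted p = 0.0075). Cd226, an activating receptor of the nectin-binding family, rose from 2.5 and 4.88 TPM to 21.0 and 17.5 TPM (2.15, adjusted p = 0.00016). Septin3 rose from 63.0 and 61.8 TPM to 99.9 and 94.0 TPM (0.63, adjusted p = 0.0045), a call lost under both other scalings. The call of Cd226 held under all 19 alternatives, and that of Notch4 was lost in 3, without WT replicate 1 or either cKO library. The calls of Clnk and Septin3 were lost without any single cDC1 library and in 10 and 8 alternatives in all, with adjusted p of up to 0.32 (Clnk, with a pseudocount of 0.1) and 0.047 (Septin3).

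In cDC2s 1 of the 18 markers was called and in pDCs 0 of the 13 tested by limma, of which 5 had an unadjusted p under 0.05. Gcsam, a regulator of receptor signalling first described in germinal centre B cells, rose in cDC2s from 4.11, 0.96 and 0.45 TPM in WT to 8.56, 6.51 and 9.53 TPM in cKO (1.90, adjusted p = 0.0068). The call was lost in 12 of 19 alternatives, among them the omission of any single library other than WT cDC2 replicate 1, with adjusted p from 6.8e-05 to 0.033.

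The 7 transcription factors of the lineage gave no call in cDC1s by limma, with 3 of 7 at an unadjusted p under 0.05 and a list median of -0.38. Irf8 averaged 1737 TPM in WT and 1891 TPM in cKO cDC1s (0.12, SE 0.33, adjusted p = 0.80), and Batf3 201 and 208 TPM (0.06, SE 0.14, adjusted p = 0.76). Both signs turned under median-of-ratios scaling (-0.05 and -0.11), and that of Batf3 also with FPKM and quantile normalization. These genes were named after their values were seen, as the factors the lineage depends on. In cDC2s 1 of the 7 was called. Bcl6, a transcriptional repressor, fell there from 89.1, 72.6 and 80.7 TPM to 52.8, 38.2 and 50.7 TPM (-0.77, adjusted p = 0.0052), a call lost in 10 of 19 alternatives, among them the omission of either cKO cDC1 library, WT cDC2 replicate 1 or 3, or cKO cDC2 replicate 2 or 3. In pDCs 0 of the 5 tested were called by limma, 1 having an unadjusted p under 0.05. With libraries blocked by replicate number, 1 was: Id2, an inhibitor of E proteins, higher in cKO pDCs by 0.51 (adjusted p = 0.0088), named after its values were seen.

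Of 23 genes of the cross-presentation and class I machinery, 2 were called in cDC1s and the list median was 0.02. B2m, the light chain of MHC class I, fell from 6471 and 5648 TPM in WT to 3138 and 3565 TPM in cKO (-0.85, adjusted p = 0.0020). Cybb, the catalytic subunit of the phagocyte NADPH oxidase, rose from 5.62 and 11.2 TPM to 21.6 and 25.3 TPM (1.44, adjusted p = 0.0014). By limma none of the 23 was called in cDC2s or pDCs, with 5 and 3 genes at an unadjusted p under 0.05. With either cKO cDC1 library left out neither cDC1 call held, and that of B2m was also lost without WT replicate 1 and with no filter on low values.

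**Figure D4:**
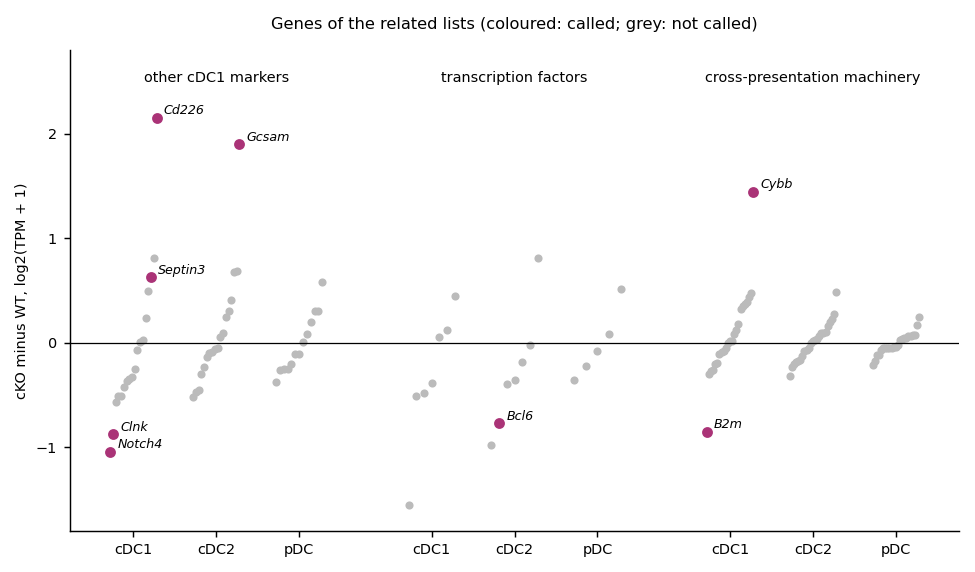
Difference between cKO and WT in log2(TPM + 1) for each tested gene of the 3 lists in cDC1s, cDC2s and pDCs, with called genes coloured and named. Called genes lie on both sides of 0 in cDC1s, from -1.04 (Notch4) to 2.15 (Cd226), and the pDC columns hold none.

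The genes whose levels ran most like those of 5 members were found by Pearson's r over the 10 cDC libraries, given as a description because the points share subset and genotype. They were Cd36, Pdia5 and Plpp1 for Xcr1 (r 0.998 to 1.00), Farp2, Gramd2 and Clnk for Clec9a (r 0.995 to 0.996), and Igf2r, Ido1 and Slc41a2 for Itgae (r 0.993 to 0.997). For Dkk3 they were Med7, Fndc4 and Cd81 (r 0.991 to 0.992), and for Gp2 Ifngr1, Ltbp2 and Apol7c (r 0.978 to 0.984), the last uncertain because it has close paralogs. Among the members themselves, Xcr1, Clec9a, Cd8a and Cadm1 had r of at least 0.975 with each other. Gp2 had r between 0.21 (Wdfy4) and 0.84 (Dkk3) with the other 9.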

How the data were processed

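RNA was measured in 16 libraries, grouped by their titles. The authors cleaned reads with SOAPnuke 1.5.2, aligned them to mm10 with HISAT2 2.0.4 and used Bowtie2 2.2.5 and RSEM 1.2.12 to quantify genes, and they deposited TPM and FPKM per gene, in separate tables for pDCs and conventional DCs. Neither unit is a count, so no count test was run. Depth was recovered from the FPKM steps of single-transcript genes, a method that erred by at most 0.295% on simulated libraries. FPKM served as an alternative.

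limma 3.58.1 (R 4.3.3) was fitted to log2(TPM + 1) over all genes with a mean of at least 1 TPM, 11411 genes in 10 conventional DC libraries (4 groups) and 11299 in 6 pDC libraries, with trended empirical Bayes and Benjamini-Hochberg adjustment. TPM sums to a constant, so a few abundant genes can shift all others. The procedure was tested on simulated data with 200 changed genes. At a log2 change of 1 it found 77% in cDC1s, 86% in cDC2s and 80% in pDCs. The simulation had independent noise and fewer changed genes than the 2555 called in cDC1s, so these rates may not hold for the data. Gene symbols and positions came from RefSeq (GRCm38.p6). Replicates correlated at r 0.981 to 0.994.

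The members and lists were chosen with earlier results of these data known. Named were all members, list genes called in a genotype comparison (at most 8 per list, by size), the 3 genes nearest to 5 members, and Trim33. In the machinery list 1 gene is not reported here. The 10 members and 3 lists were compared between genotypes, and 7 members between subsets. In pDCs same-numbered libraries deviated together (r 0.31, 0.39 and 0.21), a pairing seen in the data and not stated in the labels. Alternatives were FPKM, a pseudocount of 0.1, no filter, 2 other scalings, no trend, a replicate block and the omission of each library.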

Additional observations from a re-analysis of the deposited data

Results flagged for a closer look

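Btla differed in opposite directions in the 2 conventional subsets. Both cKO cDC1 libraries lay below both WT libraries (-0.29 on the log2 scale), and all 3 cKO cDC2 libraries lay above all WT libraries (0.38). This difference between subsets was not tested, because the cDC1 genotype values of all members are given as a description.

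For list genes the difference between the genotype effects of cDC1s and cDC2s was tested as an interaction term in limma, where 2.56% of all genes were called (292 genes, and 77 to 116 without either cKO cDC1 library, WT cDC1 replicate 1 or cKO cDC2 replicate 3). The effect on Cd226 was 1.74 higher in cDC1s (SE 0.30, adjusted p = 0.0082). Of 19 alternatives 3 gave this call (adjusted p 0.0024 to 0.059). The effect on Notch4 was 1.34 lower in cDC1s, a difference of -1.34 (SE 0.22, adjusted p = 0.0059), which 8 of the 19 also called (adjusted p 0.0010 to 0.035). Among the lists of mature DC, B-cell and pDC genes, Il12b (-4.05, SE 0.38, adjusted p = 0.00036) and Ccl22 (-3.45, SE 0.40, adjusted p = 0.0010) were called under all 19 alternatives. Cd22 (1.93, SE 0.29, adjusted p = 0.0037) was called in 10 of them and Ccr9 (-1.10, SE 0.19, adjusted p = 0.0073) in 6. The causes were not tested. No group had the 4 libraries needed to look for an outlying one.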

How the results depend on the processing

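All 7 core members separated cDC1s from cDC2s in both genotypes under every alternative tried, and 6 or 7 members (the seventh being Ly75) had non-overlapping cDC1 libraries and a difference of at least 1 between genotypes. Members called in cDC2s numbered 2, and 1 (Gp2) with FPKM, no filter, quantile normalization, the replicate block, the crossed replicate block, without the 2 cDC2 libraries of highest Xcr1, and 1 to 2 with a library left out. Members called in pDCs remained 0 throughout, 0 to 0 with a library left out. Other cDC1 markers called in cDC1s numbered 4, 2 with the crossed replicate block and 1 to 5 with a library left out. In cDC2s they numbered 1, 0 with a pseudocount of 0.1, no filter or the crossed replicate block, and 0 to 2 with a library left out. Transcription factors called in cDC1s numbered 0 and 1 (Mycl) under median-of-ratios scaling. In cDC2s they numbered 1, 0 with no filter, the replicate block, the crossed replicate block or without the 2 cDC2 libraries of highest Xcr1, and 0 to 1 with a library left out. In pDCs they numbered 0 and 1 (Id2) with the replicate block. Machinery genes called in cDC1s numbered 2, 1 (Cybb) with no filter, and 0 to 2 with a library left out (0 without cKO cDC1 replicate 1 or 2). In cDC2s they numbered 0, and 0 to 1 with a library left out. The causes were not tested; omission of a library leaves fewer samples.

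Replicate numbers did not pair cDC2 libraries (r -0.25, 0.25 and -0.16). In cDC1s same-numbered libraries deviated oppositely (r -0.23), and the crossed pairing, added after seeing the data, gave 2156 calls over all genes against 2290 with the numbered block and 2555 with none. In pDCs the block gave 335 calls against 119, and it changed no call of a member. Over the 13 pDC alternatives the adjusted p of Clec9a by limma ran from 0.0099 to 0.14. Its difference there (-0.32 to -0.25) stayed under the size limit of 0.5. That of Cadm1 ran from -0.87 to -0.64, with adjusted p from 0.014 to 0.12. Of the members' log2 differences in cDC2s, that of Xcr1 reversed to 0.22 and 0.078 without WT replicate 1 and cKO replicate 1. That of Cd8a reversed to 0.12, 0.030 and 0.11 without WT replicates 1 and 2 and cKO replicate 2, that of Cadm1 to 0.044 without cKO replicate 2, and that of Dkk3 to 0.088, 0.039 and 0.039 without WT replicate 1 and cKO replicates 1 and 2. In pDCs Wdfy4 reversed to 0.019 without cKO replicate 3, and Btla to 0.014 with FPKM, 0.023 when scaled by median of ratios, 0.00022 with quantile normalization, and 0.048, 0.0081, 0.087 and 0.027 without WT replicates 1 and 3 and cKO replicates 2 and 3. None of these was called. With a library left out these ran from -0.59 to 0.22 (Xcr1), -0.41 to 0.12 (Cd8a), -0.53 to 0.044 (Cadm1) and -0.38 to 0.088 (Dkk3) in cDC2s, and in pDCs from -0.15 to 0.019 (Wdfy4) and -0.16 to 0.087 (Btla). Neither factor gene was called in cDC1s, where Irf8 turned to -0.051 when scaled by median of ratios, and Batf3 to -0.0068 with FPKM, -0.11 by median of ratios and -0.087 with quantiles, ranging from -0.12 to 0.24 with a library left out. In cDC1s the pseudocount moved Gp2 to -5.34 and Dkk3 to -4.76, and FPKM moved them to -3.97 and -3.85. Depth limits Gp2 and Dkk3 in pDCs and Dkk3 in cDC2s, where levels lay near the limit of 3 reads.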
